A study of Mus musculus with 38 samples.

Results

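MHC II+ macrophages of the mouse ear dermis, sorted as population P5, were set against dermal CD11b+ dendritic cells (DC), which also carry MHC II. The 2 populations were chosen by the titles of their arrays, 3 for P5 and 3 for dermal DC, out of 38 arrays of 13 sorted populations. P5 cells were live and CD11b+ CD24-, with CD64+ and MHCII+ staining, and were Ly6C- and CCR2-. Dermal DC were live, CD11b+ CD24- and MHCII+, and were CD64- and Ly6C-. CD64 therefore separates the gates, CCR2 is given for the P5 gate alone, and MHC II separates neither. Both came from untreated wild-type C57BL/6 females aged 6 weeks, with no allele or agent added. The replicates of a population are independent pools of mice. The series text speaks of 3 pools without tying them to replicate numbers, so whether P5 and DC arrays share pools is not known. The number of mice per pool is not given in the sources used here. Each array holds RNA of 5000 to 10000 cells. From 5 to 20 ng of this RNA was amplified and hybridised to Affymetrix Gene 1.0 ST arrays. Levels are deposited log2 intensities of 1 probe set per gene, differences are P5 minus DC on the log2 scale with the standard error (SE) of limma, and each adjusted p is limma's over all 19937 genes.

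Tissue macrophages and conventional DC are both antigen-presenting cells of the dermis. Macrophages stay in the tissue, engulf dying cells and particles, break them down in lysosomes and secrete mediators, and they depend on the receptor for colony-stimulating factor 1. Conventional DC depend on the receptor FLT3, take antigen to the draining lymph node under the control of CCR7 and activate T cells there. CD64, the high-affinity receptor for immunoglobulin G encoded by Fcgr1, is widely used to tell the 2 lineages apart where both carry CD11b and MHC II.

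The CD64 gene and most lineage markers went with the labels. Fcgr1 lay at 8.97, 9.35 and 8.10 in P5, against 5.64, 5.98 and 6.20 in DC. The arrays of the 2 groups do not overlap, and the difference was 2.87 (SE 0.34, adjusted p = 8.9e-07), a level 7.31-fold higher in P5. Itgam, which encodes CD11b, was at 10.15, 9.88 and 9.52 in P5, against 9.55, 9.67 and 9.33 in DC, with a difference of 0.33 (SE 0.22, adjusted p = 0.55) and a 95% interval of -0.12 to 0.79. Ccr2, which was gated against in P5, lay at 9.13, 9.58 and 8.73 in P5, against 10.39, 10.35 and 10.23 in DC, and was lower in P5 with a difference of -1.18 (SE 0.27, adjusted p = 0.0058). Without P5 replicate 3 its adjusted p was 0.061. Cd24a was at 6.70, 8.03 and 6.54 in P5, against 9.01, 9.16 and 8.31 in DC although both gates were CD24-negative, a difference of -1.74 (SE 0.49, adjusted p = 0.025) that was not called without P5 replicate 1 (adjusted p = 0.11), P5 replicate 3 (0.15), DC replicate 1 (0.09) or DC replicate 2 (0.11), or when only these 2 groups were fitted (0.11). Of 9 measured macrophage markers 8 were higher in P5 and Cd14 did not pass (difference 0.49, adjusted p = 0.38). Among the 8, Adgre1 (difference 0.87, SE 0.26) and Cd68 (difference 0.54, SE 0.16) lost the call without any 1 of the 6 arrays, with adjusted p from 0.072 to 0.13 and from 0.077 to 0.1. Of 8 conventional DC markers 6 were lower in P5, while Zbtb46 (difference -0.41, adjusted p = 0.22) and Btla (difference -0.19, adjusted p = 0.85) did not pass. Btla was the lowest of the 8, at a mean of 3.53 in P5 and 3.72 in DC, which is low signal in both groups. Of the 6, Kmo (adjusted p = 0.0073) was not called without P5 replicate 3 (0.1) or DC replicate 2 (0.069), or when only these 2 groups were fitted (0.16). Irf4 was not called without DC replicate 3 (0.069). Probe sets for the Ly6C genes carry more than 1 symbol, so no Ly6C level is given.

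Array medians lay at 4.43 to 4.60 in P5 and 4.45 to 4.47 in DC, and correlations over genes at 0.951 to 0.969 within P5, 0.961 to 0.968 within DC and 0.933 to 0.959 between them. Markers of other skin cells were measured beside these. The mean level of 11 fibroblast genes was 6.38 to 7.16 on the P5 arrays, against 5.31 to 5.80 on the DC arrays, and that of 13 keratinocyte genes 6.77 to 7.90, against 6.40 to 6.95. The arrays of the 2 groups do not overlap for the fibroblast genes and do for the keratinocyte genes. The median difference was 1.12 for the fibroblast genes, with 11 of the 11 above 0. For the keratinocyte genes it was 0.62, with 11 of the 13 above 0. Of the fibroblast genes Dpt alone passed (difference 2.81, SE 0.71, adjusted p = 0.012, and 0.069 without P5 replicate 3, 0.072 without DC replicate 2 and 0.065 without DC replicate 3), Dcn had a difference of 1.43 (SE 0.45, adjusted p = 0.053), and of the keratinocyte genes 0 passed, with Krt5 at 9.42, 9.48 and 10.63 in P5, against 9.67, 8.37 and 8.81 in DC. The part of this RNA in the differences below was not tested. In bulk RNA, more cells with a transcript and more transcript per cell cannot be told apart. Arrays carry no detection calls, so where 1 group averaged below 4.02 (40% of values lie below it) its signal is called low and the size of the difference is uncertain.

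P5 macrophages and dermal DC differed in 1300 genes at an adjusted p under 0.05, of which 628 were higher and 672 lower in P5. This is 6.52% of the genes tested, 3.15% higher and 3.37% lower, and it is the background for each count of list members below. The median difference over all genes was -0.02. The genes higher in P5 reached larger differences. Of those at least 4-fold apart 156 were higher and 70 lower in P5, and at 8-fold 56 were higher and 14 lower. The median difference of called genes was 1.31 for the higher and -1.06 for the lower ones. Each called gene named below had arrays of P5 and DC that do not overlap. Without P5 replicate 3 there were 557 higher and 416 lower, and with only these 2 groups fitted 360 higher and 319 lower. Groups did not overlap for 3787 genes, 19.0% of those tested, so the lack of overlap alone is no call. Of the called genes 113 had low signal in the lower group.

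**Figure D1:**
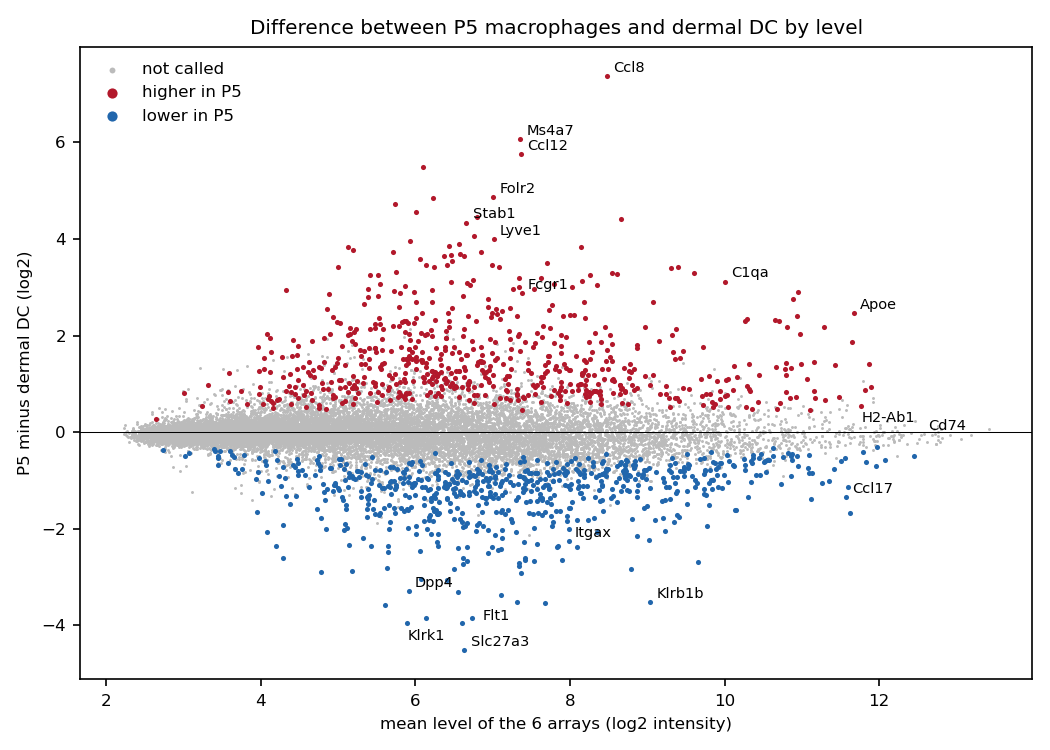
Each point is a gene, with the mean log2 intensity of the 6 arrays on the x axis and the log2 difference P5 minus dermal DC on the y axis, coloured where the adjusted p was under 0.05. The red points (628 genes higher in P5) reach to Ccl8 at 7.38, the blue points (672 genes lower in P5) to Slc27a3 at -4.51, and H2-Ab1 and Cd74 sit near 0.

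The chains that display antigen as MHC class II differed little in RNA between P5 and DC, while 4 genes of the class II pathway were lower in P5. H2-Ab1, which encodes the beta chain of I-A, lay at 11.73, 11.93 and 11.88 in P5, against 12.08, 12.05 and 11.93 in DC, with a difference of -0.18 and a 95% interval of -0.48 to 0.13. For its partner chain gene H2-Aa the levels were 12.10, 12.09 and 12.20 in P5, against 12.25, 12.26 and 12.13 in DC, and the difference was -0.08 (95% interval -0.36 to 0.19). H2-Eb1, of the second class II molecule, had a difference of -0.18 (-0.45 to 0.08), and Cd74, the invariant chain that escorts class II molecules through the cell, -0.04 (-0.26 to 0.17). The intervals of these 4 genes lie inside 0.5 on either side of 0. Of 11 class II genes 0 were higher and 4 lower in P5, with a median of -0.18. H2-Ob, a chain of H2-O that restrains peptide loading, was at 5.57, 5.87 and 5.79 in P5, against 7.44, 6.82 and 7.71 in DC, and was lower in P5 under every alternative run (difference -1.58, SE 0.29, adjusted p = 0.00038). The other 3 called genes act on loading or control. H2-DMa, a chain of the peptide exchange factor H2-M, was lower with a difference of -0.77 (SE 0.19, adjusted p = 0.0077, and 0.063 without P5 replicate 3). Ciita, the master regulator of class II transcription, was at 6.23, 6.49 and 6.17 in P5, against 7.66, 6.99 and 7.28 in DC, and lower with a difference of -1.01 (SE 0.27), with an adjusted p of 0.019 that was 0.063 without P5 replicate 1, 0.08 without P5 replicate 3 and 0.12 without DC replicate 1. Ifi30, a thiol reductase of antigen processing, differed by -0.47 (SE 0.14, adjusted p = 0.039), a call that 5 of the 6 removals of 1 array ended, with adjusted p from 0.062 to 0.28. Without P5 replicate 3 the list had 1 lower gene and without DC replicate 1 it had 2.

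Of 15 class I presentation genes 1 passed, 6.67% beside 6.52% of all genes. This was Psmb8, an immunoproteasome subunit, at 8.35, 8.25 and 8.23 in P5, against 9.13, 9.13 and 9.10 in DC, and lower in P5 with a difference of -0.84 (SE 0.13, adjusted p = 6.8e-05). B2m, the light chain of class I, had a difference of 0.22 (95% interval -0.01 to 0.45). Of 685 list members measured, 82 had a 95% interval within 0.5 of 0 on both sides. Among them were the Fc receptor signalling chain gene Fcer1g (0.15, -0.06 to 0.35), the lysosomal membrane gene Laptm5 (-0.06, -0.23 to 0.11), the cathepsin inhibitor gene Cst3 (0.01, -0.17 to 0.18) and the ferritin heavy chain gene Fth1 (0.23, 0.06 to 0.40).

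The largest differences were those of genes high in P5. Ccl8, which encodes a chemokine that attracts monocytes, was at 12.29, 12.11 and 12.11 in P5, against 4.02, 3.74 and 6.63 in DC. DC replicate 3 stood above the other DC arrays, and even it was far below each P5 array. The difference was 7.38 (SE 1.20, adjusted p = 0.0001), 166-fold. Without DC replicate 3 it was 8.29 (313-fold), and as the other DC arrays lie at the level of low signal, the size of either fold is uncertain. Ccl12, a further monocyte-attracting chemokine gene, was at 10.48, 9.96 and 10.28 in P5, against 3.61, 4.10 and 5.74 in DC, again with DC replicate 3 the highest of its group, and was 54.1-fold higher (difference 5.76, SE 0.79, adjusted p = 8.2e-06). Without DC replicate 3 the Ccl12 difference was 6.39 (83.6-fold). Ms4a7, which encodes a membrane-spanning protein of macrophages, had 3 nearly equal P5 arrays at 10.35, 10.44 and 10.36, against 3.79, 4.05 and 5.13 in DC, and a difference of 6.06 (SE 0.45, adjusted p = 2.3e-10). Folr2, the folate receptor beta gene, was at 9.72, 9.34 and 9.26 in P5, against 4.98, 4.31 and 4.43 in DC, and 29.1-fold higher in P5. Ednrb, an endothelin receptor gene, averaged 8.65 (SD 0.48) in P5 and 3.81 (SD 0.10) in DC, where signal is low, and Lyve1, whose product binds hyaluronan, 9.01 (SD 0.67) in P5 and 5.02 (SD 0.45) in DC. Of enzymes, Hpgds, the prostaglandin D synthase of blood-derived cells, lay at 8.25, 8.08 and 8.53 in P5, against 3.79, 3.61 and 3.80 in DC, again with low signal in DC. Aoah, which detoxifies bacterial lipopolysaccharide by removing acyl chains, was 21.8-fold higher (difference 4.45, SE 0.35, adjusted p = 8e-10), and Cbr2, a carbonyl reductase gene, 21.2-fold higher (difference 4.41, SE 0.54, adjusted p = 1.4e-06). Rnase2a, of the eosinophil-associated ribonucleases, Chp2, which encodes a calcium-binding protein, and Npl, which breaks down sialic acid, were also among the 15 largest, with differences of 4.71, 4.06 and 3.96. Without P5 replicate 3 the Rnase2a difference was 5.36 and without DC replicate 3 that of Chp2 was 4.77.

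**Figure D2:**
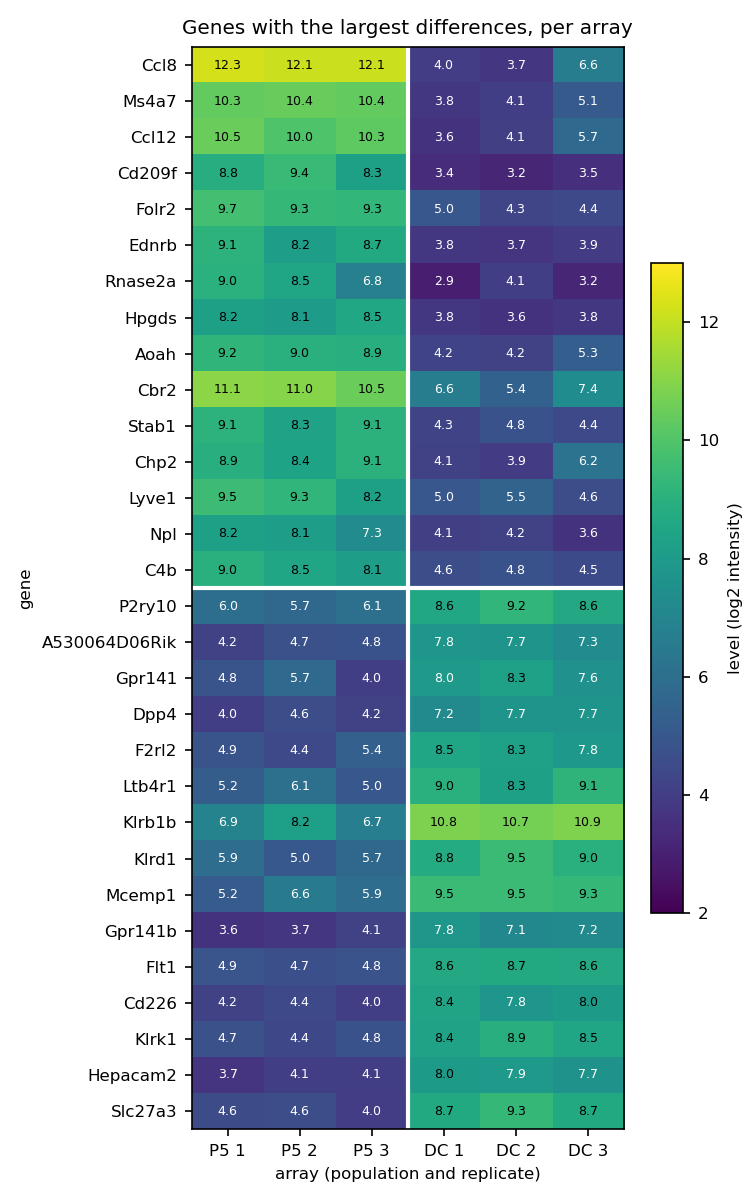
Rows are the 15 genes with the largest positive and the 15 with the largest negative differences among called genes without overlap, columns the 3 P5 and 3 dermal DC arrays, and colour and number the level (log2 intensity). The rows were chosen for these differences, and in Ccl8, Ms4a7, Ccl12 and Chp2 DC 3 stands above DC 1 and DC 2.

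Of 30 genes of tissue-resident macrophages 22 were higher in P5 and 0 lower, with a median difference of 2.63, and the count was 21 to 22 when 1 array was left out. Apoe, the lipid carrier apolipoprotein E, was at 13.02, 12.82 and 12.87 in P5, against 10.02, 10.30 and 10.996 in DC (difference 2.47, SE 0.22, adjusted p = 7.9e-09). Cx3cr1, the fractalkine receptor gene, was at 8.80, 8.84 and 9.40 in P5, against 5.51, 6.62 and 6.05 in DC, a difference of 2.95 (SE 0.27, adjusted p = 1e-08). Cd209f and Cd209g, lectin genes of the CD209 group, were 44.5-fold and 3.69-fold higher, both with low signal in DC. The remaining 8 did not pass. Wfdc17 lay at 12.16, 11.81 and 11.75 in P5, against 12.16, 12.22 and 12.16 in DC (95% interval of the difference -0.80 to 0.25), Cd209d at 11.36, 11.45 and 11.12 in P5, against 11.49, 11.65 and 11.66 in DC (-1.33 to 0.75), and Pltp, a phospholipid transfer protein gene, had a difference of 0.46 (SE 0.26, adjusted p = 0.44). In the macrophage core list 17 of 26 were higher and 0 lower, with a median of 1.31. The count was 13 to 16 when 1 array was left out, 14 with only these 2 groups fitted, 13 with centred medians and 18 with genes of low level left out. Csf1r, the receptor gene that macrophages depend on, was at 11.63, 11.38 and 11.50 in P5, against 10.15, 10.04 and 10.04 in DC, so that DC also held it at a high level, and the difference was 1.43 (SE 0.19, adjusted p = 4.6e-06). Mertk, a receptor for dying cells, spread widely in P5 at 8.61, 7.79 and 6.34, against 4.20, 3.54 and 3.79 in DC (difference 3.74, SE 0.49, adjusted p = 4.4e-06, low signal in DC). Without P5 replicate 3 the Mertk difference was 4.36. Pla2g15, a lysosomal phospholipase gene, was 3.86-fold higher. Of the 4 macrophage transcription factor genes among 19 that were higher in P5, Maf was at 9.33, 8.47 and 7.72 in P5, against 5.80, 6.16 and 5.86 in DC (difference 2.57, SE 0.35, adjusted p = 8.8e-06) and Tfec, a relative of Mitf, at 7.95, 8.08 and 7.56 in P5, against 4.86, 3.88 and 4.46 in DC (difference 3.46, SE 0.48, adjusted p = 1.1e-05). With only these 2 groups fitted the list had 2 higher. Mitf itself had a difference of 1.52 (SE 0.32, adjusted p = 0.0022, and 0.11 with only these 2 groups fitted). Bhlhe40, which encodes a transcriptional repressor, was lower in P5 with a difference of -1.50 (SE 0.29, adjusted p = 0.00092). Spi1, the gene of the lineage factor PU.1, lay at 10.82, 10.64 and 10.64 in P5, against 10.84, 10.87 and 10.92 in DC (95% interval of the difference -0.41 to 0.06).

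Of 24 genes of receptors and bridging proteins for dying cells and modified lipoproteins 8 were higher in P5 and 0 lower. Stab1, which encodes stabilin-1, was at 9.10, 8.32 and 9.06 in P5, against 4.27, 4.78 and 4.42 in DC (difference 4.34, SE 0.36, adjusted p = 2.1e-09). Msr1, the class A scavenger receptor gene, lay at 9.56, 9.34 and 8.74 in P5, against 6.04, 6.04 and 5.99 in DC, with the DC arrays within 0.05 of each other (difference 3.19, SE 0.30, adjusted p = 1.7e-08). Gas6, which bridges phosphatidylserine of dying cells to MERTK, was at 10.31, 9.93 and 9.91 in P5, against 6.62, 5.91 and 6.15 in DC, 14.2-fold higher. Cd36, a receptor for oxidised lipids and apoptotic cells, was at 11.05, 10.85 and 11.11 in P5, against 7.997, 7.39 and 7.45 in DC (difference 3.39, SE 0.55, adjusted p = 8.4e-05). Itgb5, of the integrin that binds the bridging protein MFG-E8, had a difference of 2.44 (SE 0.42, adjusted p = 0.00021). Lrp1, a large endocytic receptor gene, showed a difference of 0.02 (95% interval -0.43 to 0.46) and Anxa1 -0.08 (-0.57 to 0.41).

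Complement genes gave 8 higher and 0 lower of 21, and 10 higher with only these 2 groups fitted. The 3 chains of C1q, which starts the classical pathway, moved the same way. C1qa was at 11.70, 11.53 and 11.47 in P5, against 8.44, 7.92 and 8.98 in DC (difference 3.12, SE 0.38, adjusted p = 1.3e-06), while C1qb and C1qc were 4.5-fold and 4.51-fold higher (adjusted p = 0.0018 and 0.00095). C4b, the next component of that pathway, was at 8.96, 8.45 and 8.13 in P5, against 4.63, 4.79 and 4.45 in DC (difference 3.89, SE 0.36, adjusted p = 1.3e-08), and Cfb, of the alternative pathway, 6.02-fold higher (difference 2.59, SE 0.34, adjusted p = 5e-06). C5ar1, the receptor gene for C5a, was at 11.31, 11.33 and 11.14 in P5, against 7.87, 7.26 and 8.74 in DC, a difference of 3.30 (SE 0.33, adjusted p = 6.4e-08). Cfp, the gene of properdin, did not pass (difference -0.15, 95% interval -0.67 to 0.36). Of 11 Fc receptor genes 3 averaged under 4.02 in both groups and 2 passed, and Fcgr1 did so in every alternative run. Fcgr4 was higher by 1.51 (SE 0.46, adjusted p = 0.041), but without P5 replicates 1 or 2 its adjusted p was 0.13 and 0.16, and without DC replicates 1 or 3 it was 0.12 and 0.15. Fcgr2b, the inhibitory receptor gene, lay at 10.46, 10.31 and 10.34 in P5, against 10.37, 10.32 and 10.34 in DC (95% interval of the difference -0.36 to 0.41), and Fcgr3 at 10.99, 10.41 and 10.37 in P5, against 10.23, 10.31 and 10.41 in DC (-0.22 to 0.78).

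Of 42 lysosomal genes measured 18 were higher in P5 and 0 lower, with a median of 0.71, and 15 to 18 were called when 1 array was left out. Ctsl, a cysteine protease of the lysosome, was at 10.07, 9.80 and 9.76 in P5, against 6.57, 6.64 and 7.28 in DC (difference 3.05, SE 0.38, adjusted p = 1.8e-06). Lgmn, which encodes legumain, an asparaginyl protease that matures cathepsins, lay at 11.79, 11.21 and 11.39 in P5, against 9.20, 9.06 and 9.11 in DC (difference 2.34, SE 0.22, adjusted p = 2.1e-08). The tetraspanin gene Cd63 had almost no spread within P5 at 11.40, 11.43 and 11.42, against 9.06, 9.29 and 9.02 in DC (difference 2.29, SE 0.28, adjusted p = 1.3e-06). Ctsb was 2.65-fold higher, the proton pump subunit gene Atp6v1a 2.39-fold and the membrane protein gene Lamp1 1.63-fold (difference 0.70, SE 0.10, adjusted p = 3e-05). Npc2, which carries cholesterol out of lysosomes, had a difference of -0.26 (adjusted p = 0.22).

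Many lysosomal genes are known to carry the E-box CACGTG near their start, the core of the element bound by TFEB and its relatives. The letters CACGTG, the same on both strands, were searched in the RefSeq windows from 250 bases before to 50 after the start (300 bases, assembly GRCm38.p6). They were found for 8 of the 15 higher members with a window (53.3%), for 6 of the 20 members not called (30.0%), for 9.50% of all 15613 genes tested that have a window and in 7.15% of all 32851 windows. A match describes these letters and is not a bound site. The windows of the 3 named members with a match that had the smallest adjusted p are shown because they hold the motif at different distances from the start, with CACGTG in capitals. They are those of Lgmn (chr12:102439043-102439342, minus strand, 1 of its 2 windows, motif at -49), Ctsl (chr13:64370471-64370770, minus strand, motif at -236) and Atp6v1a (chr16:44139210-44139509, minus strand, motif at -131), each read 5′ to 3′ along the gene.
Lgmn: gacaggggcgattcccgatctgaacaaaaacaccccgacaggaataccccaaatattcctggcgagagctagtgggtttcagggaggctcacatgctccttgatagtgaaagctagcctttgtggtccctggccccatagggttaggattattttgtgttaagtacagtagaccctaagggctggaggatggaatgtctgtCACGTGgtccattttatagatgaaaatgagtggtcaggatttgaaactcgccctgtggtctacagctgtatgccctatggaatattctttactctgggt
Ctsl: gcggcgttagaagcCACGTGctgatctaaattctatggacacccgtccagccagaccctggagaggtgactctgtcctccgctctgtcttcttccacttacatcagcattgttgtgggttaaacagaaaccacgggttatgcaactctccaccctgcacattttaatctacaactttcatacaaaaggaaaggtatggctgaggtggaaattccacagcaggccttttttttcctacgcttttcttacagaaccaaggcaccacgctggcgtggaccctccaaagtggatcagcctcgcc
Atp6v1a: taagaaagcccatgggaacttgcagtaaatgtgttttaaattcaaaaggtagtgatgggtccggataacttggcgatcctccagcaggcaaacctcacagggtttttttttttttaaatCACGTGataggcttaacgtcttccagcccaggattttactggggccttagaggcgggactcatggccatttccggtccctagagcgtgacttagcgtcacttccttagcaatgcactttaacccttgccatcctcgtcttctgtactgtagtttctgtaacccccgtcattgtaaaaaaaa

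Genes that handle heme, iron and lipid followed in smaller number. Of 21 iron and heme genes 6 were higher in P5 and 0 lower, a count of 3 without P5 replicate 1 and of 2 with only these 2 groups fitted. Blvrb, a biliverdin reductase gene of heme breakdown, was at 10.37, 10.26 and 9.55 in P5, against 7.75, 8.13 and 7.76 in DC (difference 2.18, SE 0.34, adjusted p = 6.4e-05). Ncoa4, which delivers ferritin to lysosomes, was 2.11-fold higher (difference 1.08, SE 0.20, adjusted p = 0.00044, and 0.073 with the mean of its probe sets). Hmox1, the heme oxygenase gene, had higher values on each P5 array, at 12.48, 12.10 and 12.37 in P5, against 11.35, 10.79 and 11.62 in DC, and did not pass (difference 1.06, SE 0.35, adjusted p = 0.067). Of 21 lipid genes 5 were higher, the same number without each array in turn. Abca1, the cholesterol exporter gene, was at 9.24, 9.38 and 9.45 in P5, against 8.07, 7.58 and 8.45 in DC (difference 1.32, SE 0.25, adjusted p = 0.00055), Plin2, which coats lipid droplets, at 9.50, 9.77 and 9.38 in P5, against 8.39, 8.31 and 8.47 in DC (difference 1.16, SE 0.21, adjusted p = 0.00037), and Ch25h, which makes 25-hydroxycholesterol, 5.25-fold higher with low signal in DC. In cholesterol synthesis 2 of 19 were lower, Srebf2 (difference -0.88, SE 0.24, adjusted p = 0.022) and Idi1 (difference -1.13, SE 0.33, adjusted p = 0.036). Neither was called without P5 replicate 2, DC replicate 2 or DC replicate 3. With the mean of its probe sets Idi1 had a difference of -0.50 (adjusted p = 0.47), and with only these 2 groups fitted its adjusted p was 0.15.

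Of 20 chemokine genes for monocytes and neutrophils 11 were higher in P5 and 1 lower, with a median of 1.40. Without each array in turn 11 were higher, and with only these 2 groups fitted 12 were higher and 0 lower. Ccl7 was at 12.32, 12.14 and 12.31 in P5, against 9.25, 9.27 and 9.998 in DC (difference 2.75, SE 0.45, adjusted p = 0.0001). Ccl24, which attracts eosinophils, lay at 10.39, 10.25 and 9.92 in P5, against 7.31, 6.36 and 6.996 in DC (difference 3.30, SE 0.33, adjusted p = 4e-08). Pf4, which encodes platelet factor 4, was at 12.13, 12.12 and 12.18 in P5, against 9.73, 9.51 and 9.95 in DC (difference 2.41, SE 0.46, adjusted p = 0.00069), and Cxcl1, a neutrophil chemoattractant gene, at 10.92, 11.25 and 10.88 in P5, against 9.12, 9.71 and 10.000 in DC (difference 1.41, SE 0.27, adjusted p = 0.00092). The P5 arrays were above the DC arrays for each of these genes. Cxcl2 did not pass (difference 0.70, SE 0.36, adjusted p = 0.36), although its lowest adjusted p over the alternative runs was 0.040. Ccl9 was the gene lower in P5 (difference -0.46, SE 0.14, adjusted p = 0.046), with 0.16 without P5 replicate 2, 0.19 without P5 replicate 3, 0.066 without DC replicate 1 and 0.27 without DC replicate 3.

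The T cell attracting chemokine genes that passed were lower in P5. Ccl17 and Ccl22 encode ligands of CCR4, a receptor of skin-homing T cells. Ccl17 was at 10.94, 10.92 and 10.86 in P5, against 12.38, 12.23 and 12.11 in DC, high in both groups and lower in P5 with a difference of -1.34 (SE 0.30, adjusted p = 0.0045). Ccl22 lay at 8.32, 7.69 and 8.57 in P5, against 10.04, 10.24 and 9.76 in DC, lower with a difference of -1.82 (SE 0.35, adjusted p = 0.00083). They were the 2 called of 11 genes, and 0 were higher. Cxcl10, an interferon-induced chemokine gene, had higher values on the P5 arrays, at 10.21, 10.92 and 10.40 in P5, against 8.63, 9.56 and 9.45 in DC, without passing (adjusted p = 0.1), and Ccl5 spread by over 1 log2 unit within each group, at 9.59, 11.10 and 10.95 in P5, against 8.92, 10.99 and 10.08 in DC.

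Of 30 cytokine and growth factor genes 8 were higher in P5 and 0 lower, with 1 lower without DC replicate 3, 5 higher without P5 replicate 2 and 5 with only these 2 groups fitted. Il10, which restrains inflammation, was at 10.23, 10.50 and 10.58 in P5, against 7.74, 8.20 and 8.96 in DC (difference 2.14, SE 0.34, adjusted p = 6.5e-05). Igf1, insulin-like growth factor 1, lay at 10.64, 10.33 and 10.29 in P5, against 7.55, 7.30 and 8.33 in DC (difference 2.69, SE 0.45, adjusted p = 0.00016). Tnf, the inflammatory cytokine gene, was also higher, at 11.37, 11.65 and 11.54 in P5, against 10.02, 10.44 and 10.12 in DC (difference 1.33, SE 0.27, adjusted p = 0.0014). Ifnb1, which encodes interferon beta, was at 6.66, 8.03 and 7.46 in P5, against 3.67, 5.11 and 4.29 in DC (difference 3.02, SE 0.55, adjusted p = 0.00044), and Pdgfc, a growth factor for mesenchymal cells, 7.78-fold higher with low signal in DC. Il1b had lower values, at 9.94, 10.31 and 10.67 in P5, against 11.24, 11.25 and 11.14 in DC, and did not pass (difference -0.90, SE 0.31, adjusted p = 0.087). Collection was the same for both, with enzymatic digestion of the skin before sorting, and of 19 genes known to respond to dissociation Jun (difference 1.10, SE 0.22, adjusted p = 0.0011) and Egr1 (difference 1.09, SE 0.29, adjusted p = 0.018) were higher in P5. Egr1 was not called without P5 replicate 1 (0.053), P5 replicate 2 (0.057) or DC replicate 1 (0.1), and the part of this response in the cytokine values was not tested. Of 15 NF-kB genes the signalling adaptor Traf1 passed, lower, at 7.24, 6.54 and 6.77 in P5, against 8.61, 8.36 and 8.53 in DC (difference -1.651, SE 0.37, adjusted p = 0.0043).

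Receptors for growth and migration factors were called in both directions. Csf2rb, the shared signalling chain of the receptors for GM-CSF, interleukin-3 and interleukin-5, was at 8.57, 8.16 and 8.54 in P5, against 10.32, 10.25 and 10.25 in DC (difference -1.85, SE 0.17, adjusted p = 1.7e-08), and Csf2ra, the GM-CSF-binding chain, at 9.22, 9.71 and 9.12 in P5, against 10.45, 10.36 and 10.63 in DC (difference -1.13, SE 0.17, adjusted p = 3.5e-05). Flt3 lay at 6.95, 6.31 and 7.12 in P5, against 8.66, 9.002 and 8.54 in DC (difference -1.94, SE 0.33, adjusted p = 0.00022), and Il1r2, a decoy receptor for interleukin-1, at 7.57, 7.99 and 8.18 in P5, against 9.99, 10.26 and 10.19 in DC (difference -2.23, SE 0.24, adjusted p = 1.9e-07). These 4 were lower in P5, without overlap of the arrays. Higher in P5 beside Csf1r were Csf3r, the G-CSF receptor gene, at 7.64, 7.05 and 6.82 in P5, against 4.82, 4.88 and 5.69 in DC (difference 2.04, SE 0.27, adjusted p = 4.2e-06), and Tgfbr1, a TGF-beta receptor gene, 4.17-fold higher (difference 2.06, SE 0.32, adjusted p = 4.9e-05). Over the list of growth factor receptors 4 of 18 were higher and 7 lower. Ccr7, which leads DC to lymph nodes, was at 8.58, 8.07 and 8.27 in P5, against 9.85, 10.53 and 9.87 in DC, so P5 also held it above the level of low signal, and it was lower in P5 with a difference of -1.78 (SE 0.27, adjusted p = 3.5e-05). Of 21 chemokine receptor genes 3 were higher and 2 lower, and 1 lower without P5 replicate 3, while 7 averaged under 4.02 in both groups. Ccr1 (difference 2.91, SE 0.36, adjusted p = 1.4e-06) and S1pr1 (difference 3.46, SE 0.38, adjusted p = 2.4e-07), receptor genes for CC chemokines and for sphingosine 1-phosphate, were higher in P5, and S1pr1 lay at 8.37, 7.95 and 8.10 in P5, against 5.01, 4.35 and 4.68 in DC. Cxcr4, the receptor gene for CXCL12, lay at 10.99, 11.13 and 10.86 in P5, against 11.04, 11.08 and 10.90 in DC (95% interval of the difference -0.30 to 0.29).

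**Figure D3:**
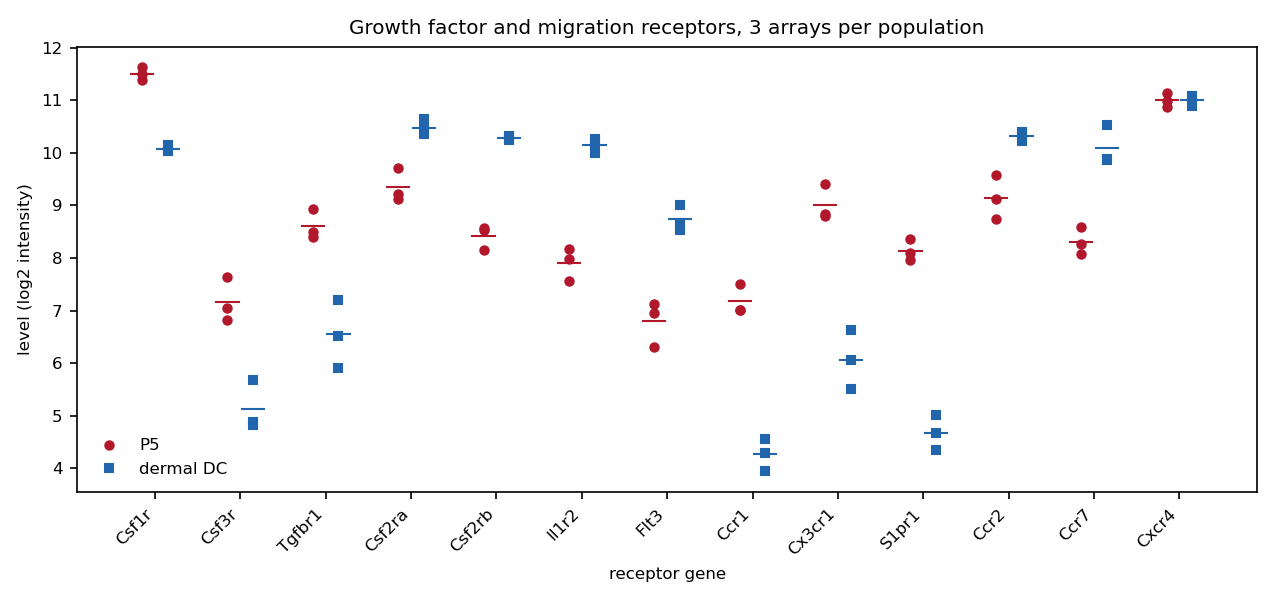
Levels (log2 intensity) of 13 receptor genes on each of the 3 P5 arrays (red circles) and the 3 dermal DC arrays (blue squares), with the mean of each group as a line. The levels of different genes are not comparable, and within each gene the groups are apart for all but Cxcr4.

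Of 23 genes of pattern recognition receptors, which sense microbial nucleic acid and cell wall parts, 6 were higher in P5 and 0 lower, a count of 2 with only these 2 groups fitted and of 10 with genes of low level left out. Tlr7, a sensor of single-stranded RNA, was at 9.07, 8.82 and 8.27 in P5, against 5.52, 4.95 and 4.498 in DC (difference 3.73, SE 0.39, adjusted p = 8.8e-08). Tlr4, the lipopolysaccharide receptor gene, was at 8.21, 7.29 and 6.45 in P5, against 4.41, 5.21 and 4.95 in DC (difference 2.46, SE 0.40, adjusted p = 0.00011). Tlr13, which senses bacterial ribosomal RNA in mice, was 11-fold higher, with the DC arrays spread over 6.60, 5.73 and 3.46, and had an adjusted p of 7.5e-06 that became 0.077 with only these 2 groups fitted. Without DC replicate 3 it was 5.88-fold higher, and without DC replicate 1 it was 17.4-fold higher. Tlr9, the sensor of unmethylated DNA, did not pass (difference 0.11, 95% interval -0.35 to 0.58).

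Of 21 interferon-induced genes 10 were higher in P5 with 0 lower and a median of 1.02. The count was 7 to 10 without 1 array and 4 with only these 2 groups fitted. Ddx60, a helicase gene of antiviral defence, was at 6.26, 6.52 and 5.97 in P5, against 4.03, 4.29 and 4.19 in DC (difference 2.08, SE 0.29, adjusted p = 1.3e-05). Rsad2, whose product viperin blocks viral replication, lay at 6.51, 7.09 and 6.75 in P5, against 5.005, 5.38 and 5.32 in DC (difference 1.55, SE 0.29, adjusted p = 0.00058), and Rtp4 at 8.70, 8.83 and 7.43 in P5, against 5.52, 5.34 and 5.84 in DC (difference 2.75, SE 0.49, adjusted p = 0.00028). Oas2, a sensor of double-stranded RNA, had a difference of 2.13 (SE 0.31, adjusted p = 1.7e-05). Irf7, the factor that amplifies type I interferon, was 4.81-fold higher, with P5 replicate 2 far above the others at 6.67, 8.28 and 6.38, against 4.11, 5.28 and 5.14 in DC (adjusted p = 0.00063, and 0.1 with only these 2 groups fitted). Without P5 replicate 2 its difference was 1.68, 3.21-fold. Ifi27l2a lay at 11.34, 11.52 and 10.82 in P5, against 11.02, 11.07 and 11.19 in DC (95% interval of the difference -0.21 to 0.47).

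Interferon-induced genes are known to be turned on through a response element with repeats of GAAA. The core GAAANNGAAA was searched on both strands of the same windows and was found for 5 of the 8 higher members with a window (62.5%), 3 of the 6 not called, 3.89% of all genes tested and 3.44% of all windows. The windows of Ddx60 (chr8:61927837-61928136, plus strand, matches at -53 and -19) and Rsad2 (chr12:26456403-26456702, minus strand, match at -120 on the opposite strand), the named members with a match, are shown to compare how the core is placed, with matches in capitals.
Ddx60: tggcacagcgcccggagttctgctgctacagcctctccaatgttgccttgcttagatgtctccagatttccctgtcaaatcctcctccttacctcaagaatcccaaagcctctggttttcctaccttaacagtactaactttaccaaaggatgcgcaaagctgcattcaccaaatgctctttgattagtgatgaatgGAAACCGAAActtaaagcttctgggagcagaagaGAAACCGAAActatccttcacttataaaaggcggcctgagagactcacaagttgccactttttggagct
Rsad2: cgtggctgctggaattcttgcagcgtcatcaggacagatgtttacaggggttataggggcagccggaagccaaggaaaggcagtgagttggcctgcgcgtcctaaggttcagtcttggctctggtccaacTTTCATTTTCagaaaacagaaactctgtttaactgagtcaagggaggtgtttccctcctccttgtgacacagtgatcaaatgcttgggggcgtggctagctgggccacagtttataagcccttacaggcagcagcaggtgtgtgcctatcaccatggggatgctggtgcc

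Of 29 genes of the conventional DC lineage 18 were lower in P5 with 1 higher and a median of -1.36. Leaving out 1 array gave 14 to 18. Itgax, which encodes CD11c, was at 6.86, 6.99 and 6.71 in P5, against 9.52, 8.99 and 8.81 in DC (difference -2.25, SE 0.20, adjusted p = 5.4e-09). Napsa, an aspartic protease gene, lay at 7.79, 8.44 and 8.41 in P5, against 10.15, 10.48 and 10.12 in DC (difference -2.04, SE 0.23, adjusted p = 3.7e-07), and Jaml, an adhesion molecule gene, at 5.48, 5.01 and 4.97 in P5, against 7.33, 7.40 and 7.02 in DC (difference -2.10, SE 0.28, adjusted p = 4.4e-06). Dpp4, the peptidase CD26, was at 4.04, 4.62 and 4.15 in P5, against 7.25, 7.70 and 7.71 in DC (difference -3.28, SE 0.42, adjusted p = 3.3e-06), and P2ry10, a receptor for lysophospholipids, 7.57-fold lower. The gene higher in P5 was Rab7b, a lysosomal GTPase gene (difference 1.18, SE 0.33, adjusted p = 0.027). It was not called without P5 replicate 1 (0.098), P5 replicate 3 (0.091), DC replicate 2 (0.06) or DC replicate 3 (0.16). Slamf7 lay at 10.22, 9.93 and 10.20 in P5, against 10.06, 10.29 and 10.37 in DC (95% interval of the difference -0.55 to 0.31).

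Within the CD11b+ DC list 6 of 21 were lower and 0 higher. Slc27a3, of the fatty acid transport protein family, had the largest fall of all named genes, at 4.55, 4.59 and 3.99 in P5, against 8.67, 9.32 and 8.68 in DC (difference -4.51, SE 0.26, adjusted p = 2e-12), a level 22.9-fold lower in P5. Mgl2, the lectin CD301b often used to mark dermal DC, did not pass, at 11.48, 10.98 and 11.07 in P5, against 11.74, 11.67 and 11.73 in DC (difference -0.54, SE 0.35, adjusted p = 0.55), nor did Sirpa, which encodes an inhibitory receptor for CD47, at 10.73, 10.78 and 10.68 in P5, against 10.38, 10.33 and 10.45 in DC (difference 0.34, SE 0.12, adjusted p = 0.082). Of 24 DC transcription factor genes 4 were lower and 2 higher. Zeb2, a transcriptional repressor gene, was 1 of the 2 higher (difference 0.52, SE 0.15, adjusted p = 0.038), a call that 5 of the 6 removals of 1 array ended, with adjusted p from 0.051 to 0.25, as did fitting only these 2 groups (0.15) and centred medians (0.095). Ahr, the aryl hydrocarbon receptor gene, was at 8.33, 8.52 and 8.12 in P5, against 9.32, 9.54 and 9.42 in DC (difference -1.10, SE 0.15, adjusted p = 1.3e-05) and Bcl11a at 5.41, 5.64 and 5.94 in P5, against 8.28, 7.37 and 6.94 in DC (difference -1.86, SE 0.28, adjusted p = 3.6e-05). Irf4, which CD11b+ DC need, was lower with a difference of -1.12 (SE 0.29, adjusted p = 0.013, and 0.069 without DC replicate 3). Irf8, which is needed for the other main DC lineage and for monocytes, was higher, at 7.91, 7.24 and 7.47 in P5, against 5.84, 6.44 and 5.99 in DC (difference 1.45, SE 0.24, adjusted p = 0.00011).

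Maturation and costimulation genes mostly did not pass. Of 28 maturation and migration genes 4 were lower in P5 and 0 higher, with 2 lower with only these 2 groups fitted. Samsn1, an adaptor gene, was 2.56-fold lower (difference -1.35, SE 0.24, adjusted p = 0.00027). Cd83, which stabilises MHC II at the surface, lay at 11.62, 11.72 and 11.65 in P5, against 11.74, 11.62 and 11.56 in DC (95% interval of the difference -0.50 to 0.55). Of 22 costimulatory and checkpoint ligand genes 2 passed, 9.09% of the list beside 6.52% of all genes. Cd276, the ligand B7-H3, was higher by 0.82 (SE 0.14, adjusted p = 0.00018), and Cd80 lower with a difference of -1.11 (SE 0.28, adjusted p = 0.011), which without P5 replicate 3 was 0.1, without DC replicate 3 0.05 and with only these 2 groups fitted 0.061. Cd86 had a difference of -0.14 (95% interval -0.67 to 0.40).

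Lectin receptor genes best known from natural killer (NK) cells that passed were lower in P5. Of 18 NK-type lectin receptor genes 8 were lower and 0 higher, 6 to 9 without 1 array and 4 with only these 2 groups fitted. On average 7 of the 18 lay under 4.02 in both groups, and with genes of low level left out 9 of 11 were lower. Klrb1b, an inhibitory receptor gene, lay at 6.90, 8.21 and 6.71 in P5, against 10.82, 10.69 and 10.88 in DC (difference -3.52, SE 0.32, adjusted p = 1.2e-08). Klrd1, which encodes CD94, was at 5.93, 5.02 and 5.74 in P5, against 8.78, 9.48 and 8.98 in DC (difference -3.52, SE 0.40, adjusted p = 3.8e-07), and Klrk1, which encodes the activating receptor NKG2D, at 4.72, 4.37 and 4.78 in P5, against 8.35, 8.91 and 8.45 in DC (difference -3.95, SE 0.27, adjusted p = 8e-11). Klra17 had a difference of -2.36 (SE 0.25, adjusted p = 1e-07), with low signal in P5. Genes of this family resemble each other, and cross-hybridisation between them was not tested. The part of NK cell or T cell RNA in the lectin receptor values was not tested. Most markers of NK cells themselves had low signal in both groups. Of 8 such markers 0 passed, 7 lay under 4.02 in both, their mean was 3.40 to 3.62 on the P5 arrays, against 3.57 to 3.67 on the DC arrays, and Prf1, the perforin gene, was at 4.80, 5.21 and 5.17 in P5, against 5.37, 5.22 and 5.27 in DC. Of 9 T cell markers 1 was higher, Cd4 (difference 1.67, SE 0.35, adjusted p = 0.0021, and 0.095 with only these 2 groups fitted), and 1 lower. This was Cd2, an adhesion receptor gene, at 6.24, 4.91 and 5.93 in P5, against 8.14, 7.56 and 8.89 in DC (difference -2.50, SE 0.47, adjusted p = 0.00053). Cd3e was at 5.20, 5.30 and 5.27 in P5, against 5.34, 5.21 and 6.64 in DC, and did not pass, and the mean of the list was 4.78 to 5.24, against 5.03 to 5.44.

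Further genes were among the 15 with the largest differences in the lower direction. Cd226, which encodes an adhesion receptor of lymphocytes and DC, was at 4.15, 4.45 and 4.05 in P5, against 8.44, 7.76 and 8.01 in DC (difference -3.86, SE 0.33, adjusted p = 4.6e-09). Flt1, a receptor for vascular endothelial growth factor, had nearly equal arrays in each group, at 4.92, 4.69 and 4.83 in P5, against 8.63, 8.70 and 8.63 in DC (difference -3.84, SE 0.30, adjusted p = 8.6e-10). Endothelial cells also express Flt1. Of 12 endothelial markers Flt1, Vwf (difference -0.51, SE 0.12, adjusted p = 0.0056) and Pecam1 (difference -1.12, SE 0.32, adjusted p = 0.031) were lower in P5, Pecam1 not without P5 replicate 2 (0.22), DC replicate 1 (0.12), DC replicate 2 (0.06) or DC replicate 3 (0.069), and with only these 2 groups fitted Vwf had 0.089 and Pecam1 0.1. Tie1 (difference -0.02, 95% interval -0.25 to 0.21) and Cldn5 (difference 0.00, 95% interval -0.38 to 0.39), which endothelial cells express, did not pass. The mean of the list was 4.20 to 4.37 on the P5 arrays, against 4.60 to 4.67 on the DC arrays. Flt1 itself enters this mean, so the mean is no separate measure of endothelial RNA. The median difference of the list was -0.009, with 6 of the 12 above 0. The part of endothelial RNA in the Flt1 value was not tested. Ltb4r1, the leukotriene B4 receptor gene, was at 5.23, 6.07 and 4.97 in P5, against 8.99, 8.26 and 9.14 in DC (difference -3.37, SE 0.38, adjusted p = 3.8e-07), and F2rl2, a thrombin-activated receptor gene, 9.94-fold lower. Hepacam2, an adhesion molecule gene, averaged 3.92 (SD 0.23) in P5 and 7.87 (SD 0.18) in DC, with low signal in P5, and Mcemp1, a myeloid membrane protein gene, 5.90 (SD 0.70) in P5 and 9.44 (SD 0.11) in DC. Gpr141b, Gpr141 and A530064D06Rik had differences of -3.57, -3.07 and -3.04.

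**Figure D4:**
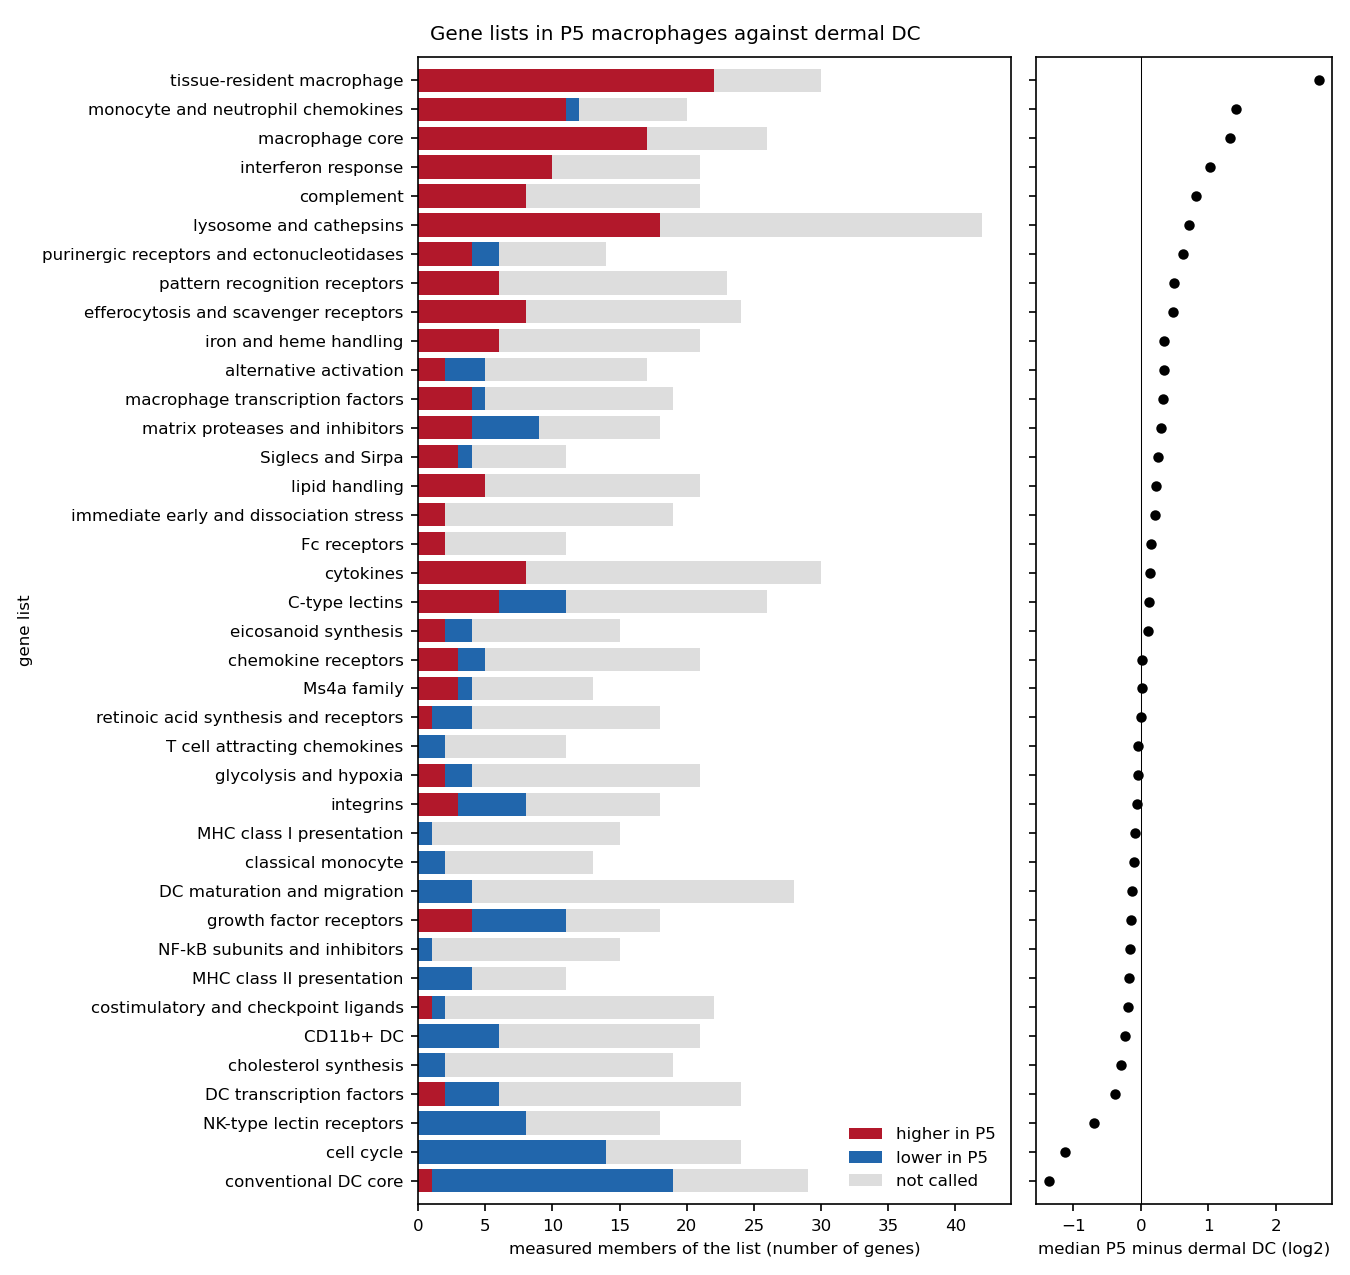
The left panel shows, for each of 39 gene lists, the number of measured members that were higher in P5 (red), lower in P5 (blue) or not called (grey), and the right panel the median log2 difference P5 minus dermal DC of the list. The tissue-resident macrophage list is at the top with 22 of 30 higher and a median of 2.63, and the conventional DC core list at the bottom with 18 of 29 lower and a median of -1.36.

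Called genes of the C-type lectin, integrin and Siglec families lay on both sides of 0. Among 26 C-type lectin genes 6 were higher in P5 and 5 lower. Clec12a, an inhibitory receptor gene, was at 9.58, 9.51 and 9.36 in P5, against 8.48, 7.70 and 8.04 in DC (difference 1.41, SE 0.26, adjusted p = 0.00045) and Clec4d, a receptor of mycobacterial glycolipid, 2.98-fold higher. Clec7a, which encodes the beta-glucan receptor dectin-1, was lower, at 7.13, 8.42 and 7.46 in P5, against 9.09, 9.20 and 9.01 in DC (difference -1.43, SE 0.27, adjusted p = 0.00053, and 0.08 with only these 2 groups fitted, where 0 of the list was lower). Cd209a was lower, at 10.26, 9.32 and 9.33 in P5, against 10.93, 11.02 and 10.97 in DC (difference -1.33, SE 0.30, adjusted p = 0.0035, and 0.052 in that fit). Of 18 integrin genes 3 were higher and 5 lower. Itga9 was higher, at 7.37, 7.46 and 6.87 in P5, against 4.59, 4.17 and 4.31 in DC (difference 2.87, SE 0.27, adjusted p = 1.9e-08). Itgb7 (difference -2.03, SE 0.23, adjusted p = 3.7e-07) and Itga1 (difference -2.90, SE 0.33, adjusted p = 3.6e-07, low signal in P5) were lower. Of 11 genes of Siglecs and Sirpa 3 were higher and 1 lower. Siglec1, which encodes the sialic acid receptor CD169 of macrophages, was at 8.95, 8.005 and 8.13 in P5, against 4.43, 4.57 and 4.53 in DC (difference 3.86, SE 0.37, adjusted p = 2.8e-08), while Siglecg, an inhibitory relative, was lower at 5.17, 5.15 and 5.50 in P5, against 7.69, 6.50 and 7.05 in DC (difference -1.81, SE 0.27, adjusted p = 3.1e-05). In the Ms4a family 3 of 13 genes were higher and 1 lower. The lower one was Ms4a4c (difference -1.83, SE 0.57, adjusted p = 0.0496), a call that 5 of the 6 removals of 1 array ended, with adjusted p from 0.052 to 0.37, as did fitting only these 2 groups (0.24), quantile normalization (0.051), centred medians (0.054), the intensity trend (0.054) and array weights (0.13). Beside Ms4a7, Ms4a6b was higher at 10.62, 10.57 and 9.54 in P5, against 6.74, 7.56 and 6.62 in DC (difference 3.27, SE 0.33, adjusted p = 5.9e-08), and Ms4a6c lay at 10.02, 10.01 and 9.65 in P5, against 9.90, 9.97 and 9.80 in DC (95% interval of the difference -0.53 to 0.54).

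P2ry12, a receptor gene for ADP, was at 9.89, 9.16 and 9.32 in P5, against 5.66, 6.71 and 5.51 in DC, 11.3-fold higher in P5 (adjusted p = 6.7e-05). P2ry13, a related ADP receptor gene, lay at 9.31, 7.94 and 7.996 in P5, against 4.75, 4.88 and 4.55 in DC, 12.9-fold higher (adjusted p = 1e-05). Among 14 genes of purine signalling 4 were higher and 2 lower, and Entpd1, the ATP-degrading enzyme CD39, had a difference of 0.02 (95% interval -0.60 to 0.65). Of 15 eicosanoid genes 2 were higher and 2 lower, the second of them Lta4h, a leukotriene A4 hydrolase gene (difference -0.90, SE 0.23, adjusted p = 0.014). Lta4h was not called without P5 replicate 3 (0.15), DC replicate 1 (0.11) or DC replicate 3 (0.08), nor with only these 2 groups fitted (0.25), and each left 1 lower. Beside Hpgds, Ltc4s, the leukotriene C4 synthase gene, was higher, at 7.57, 7.48 and 6.86 in P5, against 5.34, 5.89 and 5.73 in DC (difference 1.647, SE 0.35, adjusted p = 0.0025), whereas Alox15, a 12/15-lipoxygenase gene, was lower at 5.11, 5.41 and 5.24 in P5, against 7.77, 7.94 and 8.22 in DC (difference -2.73, SE 0.37, adjusted p = 8.2e-06). Of 18 genes of retinoic acid synthesis and sensing 1 was higher and 3 lower, and 1 lower with only these 2 groups fitted. Dhrs3, which turns retinal back into retinol, was at 9.48, 9.29 and 9.34 in P5, against 7.16, 6.92 and 6.94 in DC (difference 2.36, SE 0.26, adjusted p = 1.9e-07), and Dhrs9 was lower at 4.52, 4.70 and 4.67 in P5, against 6.01, 6.31 and 5.58 in DC (difference -1.34, SE 0.20, adjusted p = 3.1e-05).

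Of 18 matrix proteases and inhibitors 4 were higher in P5 and 5 lower, with 2 higher without DC replicate 2 and 3 lower without P5 replicate 3 or DC replicate 1. Mmp9, a gelatinase gene, was at 6.72, 7.28 and 6.37 in P5, against 4.08, 3.89 and 4.02 in DC (difference 2.79, SE 0.24, adjusted p = 3.2e-09, low signal in DC), and Mmp14, a membrane-anchored collagenase gene, at 6.81, 7.36 and 7.23 in P5, against 5.12, 4.89 and 5.37 in DC (difference 2.01, SE 0.38, adjusted p = 0.00065). Mmp12, the macrophage elastase gene, was lower, at 8.18, 8.57 and 8.84 in P5, against 10.29, 10.10 and 10.32 in DC (difference -1.71, SE 0.33, adjusted p = 0.00079), and so was Adam8 (difference -1.83, SE 0.25, adjusted p = 6.2e-06). The fibroblast gene Dpt was also higher in P5, and the part of fibroblast RNA in the matrix values was not tested. Of 17 genes tied to alternative activation 2 were higher and 3 lower, with 1 higher without P5 replicate 2, DC replicate 2 or DC replicate 3. Ccl24 and Mrc1 were higher, Fn1, the fibronectin gene, was lower at 7.99, 8.53 and 8.43 in P5, against 11.23, 10.84 and 10.96 in DC (difference -2.70, SE 0.34, adjusted p = 2.3e-06), and Retnla did not pass, at 11.19, 11.02 and 11.19 in P5, against 10.88, 10.71 and 10.71 in DC (difference 0.36, SE 0.45, adjusted p = 0.84). Of 13 classical monocyte genes 2 were lower in P5 and 0 higher. They were Ccr2 and Fn1, with 1 lower without P5 replicate 3, where Ccr2 was not called, and 3 lower without P5 replicate 1. Mrc1, the mannose receptor gene, was at 11.68, 11.51 and 11.64 in P5, against 10.68, 10.46 and 10.39 in DC, and its adjusted p of 0.029 was 0.086, 0.055 and 0.087 without P5 replicates 1, 2 and 3, and 0.089 and 0.098 without DC replicates 2 and 3.

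Of 24 cell cycle genes, which mark proliferating cells, 14 were lower in P5 and 0 higher, with a median of -1.12, 11 to 17 lower without 1 array and 7 with only these 2 groups fitted. Top2a, which untangles DNA for mitosis, was at 5.45, 6.06 and 5.54 in P5, against 7.51, 7.81 and 7.13 in DC (difference -1.80, SE 0.25, adjusted p = 8.9e-06). Cdk1, the mitotic kinase gene, lay at 4.94, 5.02 and 4.72 in P5, against 6.11, 6.63 and 6.49 in DC (difference -1.52, SE 0.22, adjusted p = 1.5e-05), and Tyms, of nucleotide synthesis, at 5.58, 6.29 and 5.28 in P5, against 7.15, 7.03 and 7.37 in DC (difference -1.47, SE 0.27, adjusted p = 0.00052). Mcm3 (difference -1.07, SE 0.22, adjusted p = 0.0017) and Cdc20 (difference -1.05, SE 0.22, adjusted p = 0.0017) were lower too. Pcna, which acts in replication and repair, did not pass (difference 0.23, 95% interval -0.13 to 0.58). Of 21 glycolysis and hypoxia genes 2 were higher and 2 lower. Slc16a3, a lactate transporter gene, was 1 of the 2 lower (difference -1.04, SE 0.29, adjusted p = 0.024) and was not called without P5 replicate 1 (0.097), P5 replicate 3 (0.062), DC replicate 1 (0.053) or DC replicate 3 (0.19), nor with only these 2 groups fitted (0.11). Over the list 1 to 3 were lower when 1 array was left out. Pfkp, a phosphofructokinase gene, was at 6.85, 7.31 and 7.03 in P5, against 8.81, 8.93 and 8.33 in DC (difference -1.63, SE 0.16, adjusted p = 3.5e-08), and the hexokinase gene Hk3 at 6.22, 6.79 and 6.84 in P5, against 4.999, 5.59 and 4.97 in DC (difference 1.43, SE 0.23, adjusted p = 7.5e-05).

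The levels of these genes in the other steady-state dermal populations are given as a description, with no test. P1, P2 and P3 are labelled monocytes and were CCR2+, with P1 MHCII- and P2 and P3 MHCII+, and P4 is labelled macrophage and differed from the P5 gate in being MHCII-. All came from untreated wild-type C57BL/6 females of the same age. Stab1 was 8.83 (SD 0.44) in P5 and 9.51 (SD 0.19) in P4, against 4.49 (SD 0.26) in DC, and P1, P2 and P3 had 4.64 (SD 0.33), 5.25 (SD 1.12) and 6.50 (SD 0.61). Lyve1 had 9.01 (SD 0.67) in P5 and 10.32 (SD 0.33) in P4, against 5.02 (SD 0.45) in DC, and 4.43 (SD 0.14), 5.79 (SD 1.48) and 5.38 (SD 0.76) in P1, P2 and P3. For both genes P4 and P5 stood above the other gates by more than the spread within them. Ms4a7 and Apoe were intermediate or high in the monocyte gates. Ms4a7 was 10.38 (SD 0.05) in P5, 5.41 (SD 0.78), 7.67 (SD 0.81) and 8.99 (SD 0.48) in P1, P2 and P3, and 4.32 (SD 0.71) in DC, while Apoe had 12.90 (SD 0.10) in P5, 12.08 (SD 0.05), 12.16 (SD 0.34) and 12.61 (SD 0.13) in P1, P2 and P3, and 10.44 (SD 0.50) in DC. Ccl8 spread widely in P2 and P3, at 6.55 (SD 2.33) and 6.60 (SD 3.15).

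Several genes lower in P5 also had lower values in dermal DC after the contact sensitiser DNFB than in untreated DC. These DC came from the same strain, sex and age and the same gate, from ears taken 3 days after DNFB. Slc27a3 was 6.84 (SD 0.26) in P2, 7.21 (SD 0.42) in P3, 4.003 (SD 0.18) in P4 and 4.38 (SD 0.34) in P5, and 5.69 (SD 0.54) in DNFB DC, against 8.89 (SD 0.38) in untreated DC. Hepacam2 and Flt1 had 4.63 (SD 0.21) and 5.52 (SD 0.34) in DNFB DC, against 7.87 (SD 0.18) and 8.66 (SD 0.04) in untreated DC. For the 4 NK-type receptor genes named above the mean after DNFB was above that of untreated DC. Klrd1 was 11.13 (SD 0.35) in DNFB DC and 9.08 (SD 0.36) in untreated DC, and Klrk1 was 9.26 (SD 0.31) in DNFB DC and 8.57 (SD 0.30) in untreated DC. Klra17 was 6.69 (SD 0.61) in DNFB DC and 5.37 (SD 0.11) in untreated DC, and Klrb1b 11.02 (SD 0.18) in DNFB DC and 10.80 (SD 0.10) in untreated DC. Klrb1b reached 9.28 (SD 0.32) in P3 and 7.28 (SD 0.82) in P5 but was 4.35 (SD 0.34) in P4.

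**Figure D5:**
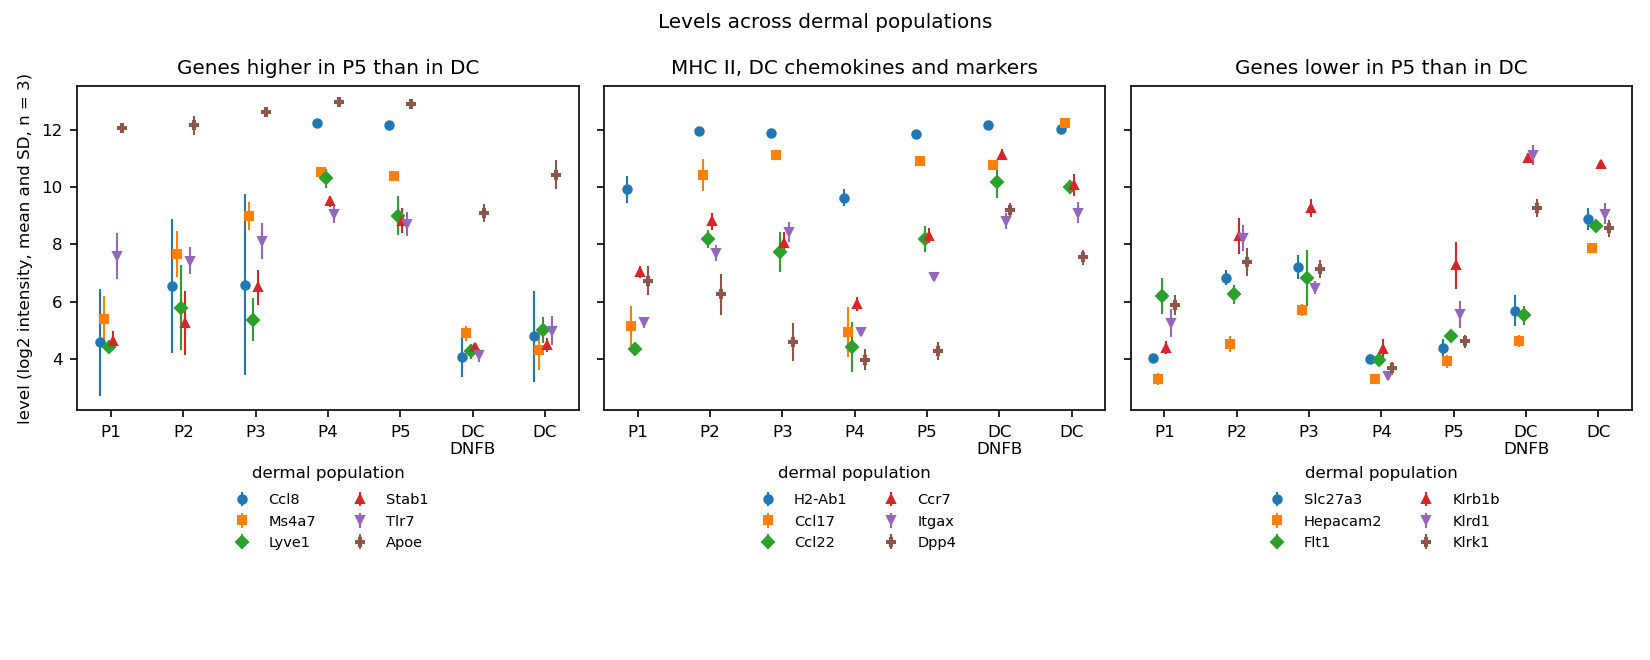
Mean levels (log2 intensity, bars are the SD of 3 arrays) of 18 genes in dermal P1 to P5, dermal DC after DNFB and untreated dermal DC, in 3 panels of 6 genes that share the y axis. Ccl8, Lyve1 and Stab1 are high in P4 and P5, H2-Ab1 is near 12 in P2, P3, P5 and both DC groups, and Slc27a3, Hepacam2 and Flt1 are lower in DC after DNFB than in untreated DC.

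A second pair of CD64+ and CD64- populations, on other arrays, came from skin-draining lymph nodes of wild-type C57BL/6 females of the same age, 3 days after DNFB. Its arrays enter the same fit, so both comparisons share the variance estimated for each gene. The labels of the CD64+ cells conflict, with the titles calling them migratory and not DC, the cell type field monocytes and the description DC. There CD64+ cells (sorted as CD11c+ MHCIIhi CD11b+ CD24- Ly6C+ CD64+) and migratory DC (Ly6C- CD64-), 3 arrays each, differed in 961 genes, 4.82% of those tested, with 761 (3.82%) higher and 200 (1.0%) lower in the CD64+ cells. Without node CD64+ replicate 3 the counts were 473 higher and 61 lower, and without node migratory DC replicate 1 there were 129 lower. With array weights the majority turned, to 1363 higher and 1896 lower, and with only the 2 node groups fitted there were 647 higher and 80 lower. Of the 628 genes higher in P5 than in dermal DC 223 (35.5%) were also higher in node CD64+ cells, beside 3.82% of all genes. The 223 were 29.3% of the genes higher in node CD64+ cells, beside 3.15% of all genes higher in P5. Lower in node CD64+ cells were 3 of the 628 (0.478%), beside 1.0% of all genes. Of the 672 genes lower in P5 13 (1.93%) were also lower in node CD64+ cells, beside 1.0% of all genes. The 13 were 6.50% of the genes lower in node CD64+ cells, beside 3.37% of all genes lower in P5. Higher in node CD64+ cells were 48 of the 672 (7.14%), beside 3.82% of all genes. With each pair of groups fitted alone, so that no variance is shared, 133 were higher in both (36.9% of 360 genes higher in P5) and 9 lower in both (2.82% of 319). With array weights 284 were higher in both (42.1% of 674) and 49 lower in both (6.81% of 720). The 2 overlaps were not tested against each other.

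Named genes of P5 fell on both sides of the threshold in the node. The node difference, CD64+ minus migratory DC, was 5.66 (SE 0.38, adjusted p = 4.6e-12) for C1qa, 4.21 (SE 0.27, adjusted p = 1.8e-12) for Cx3cr1, 4.86 (SE 0.45, adjusted p = 3.3e-09) for Ms4a7 and 4.06 (SE 0.22, adjusted p = 1.2e-13) for Apoe, beside 3.12, 2.95, 6.06 and 2.47 in P5 minus dermal DC. Stab1, Cd209f and Lyve1 did not pass in the node, with 0.59 (SE 0.36, adjusted p = 0.5), 0.97 (SE 0.47, adjusted p = 0.34) and 0.32 (SE 0.51, adjusted p = 0.86). Of the genes lower in P5, Slc27a3 had a difference of -0.26 (SE 0.26, adjusted p = 0.74) and Klrk1 0.23 (SE 0.27, adjusted p = 0.79) in the node, and Itgax was higher in node CD64+ cells (difference 1.53, SE 0.20, adjusted p = 1.9e-06) and lower in P5. Csf2rb, also lower in P5, had a difference of -0.30 (SE 0.17, adjusted p = 0.46). Whether these differences differ between dermis and node was not tested.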

How the data were processed

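RNA of 13 sorted myeloid populations was measured on 38 arrays, 3 each for P5 and dermal DC. Per the submitters' processing notes the authors used RMA from the affy package, versions not given in the sources used here. They deposited log2 intensities for 34760 probe sets, between 1.65 and 13.8. Raw intensities were not used, and 0 columns of the table were left unused. Of the probe sets 21640 name a single gene and were used (21553 matched RefSeq), while 1321 that name several and 11799 that name none were left out. Of 954 genes with several probe sets the one with the highest mean over all arrays was used, which left 19937 genes.

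All 13 group means entered 1 linear model in limma 3.58.1 (R 4.3.3 with version 1.17.8 of data.table), and P5 minus dermal DC was taken from it with moderated tests (25 residual and 3.13 prior degrees of freedom) and Benjamini-Hochberg adjustment over all genes. An exact permutation of 3 against 3 arrays cannot go below p = 0.1 (two-sided). The same fit gave the node comparison. Precision rests on 3 arrays a group, and p-values measure the spread between pools of mice. That spread is estimated per gene within all 13 populations together. The SE of a gene therefore also holds its spread in populations that are not compared. With only P5 and dermal DC fitted, 629 of the 1300 calls (48.4%) remained. Plots were drawn with Python 3.11.15, pandas 2.3.3 and matplotlib 3.10.9.

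The 2 populations, the 39 gene lists and 12 lists of other cell types, and the rule for named genes were chosen with earlier results of these data known, and lists come from general knowledge (779 of 832 symbols were measured, the others were not analysed here). List members are counted and not tested as sets. Of the measured genes on the 39 lists 82 are on 2 lists and 10 on 3, so the counts of different lists are not separate from each other. Named genes are the sort markers, macrophage and DC markers, the 15 largest differences in each direction among called genes without overlap and with a higher group mean of at least 5.13 (the 60th percentile), and per list up to 6 called members of smallest adjusted p, up to 3 called members of opposite direction, up to 3 members not called of highest mean, and up to 10 list members of highest mean with a 95% interval inside 0.5 of 0. On simulated data with 100 genes changed 2-fold and 100 changed 4-fold in P5 minus DC, over 19937 genes, the fit found 40 and 98, called 10 unchanged genes and turned 0 around. The changed genes were drawn from those above a set mean level, with normal noise of 1 spread per gene. Far fewer genes changed than the 1300 called in the data, so these counts are not the sensitivity of this comparison. Chip batches are described in the series without a key to arrays, so no batch term could be fitted.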

Additional observations from a re-analysis of the deposited data

How the results depend on the processing

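Of 331 named genes 188 were called and 124 of these stayed called under each alternative run (replicate block, only the compared groups fitted, quantile normalization, centred medians, low values left out, mean of probe sets, intensity trend with robust prior, array weights, a change of at least 2-fold, each of 6 arrays left out). The other 64 lost the call in at least 1 of them, and 0 of the 188 changed sign in any. Of the 143 named genes not called 45 had another sign in at least 1 alternative. Some of the 143 were called in an alternative, at most 6 in a single run (quantile normalization). For Cxcl2, Cxcl10 and Dcn the lowest adjusted p of limma over the alternatives was 0.040, 0.035 and 0.035. For Sirpa, Hmox1 and Cd207 it was 0.039, 0.046 and 0.013. The main comparison called 679 genes (360 higher, 319 lower in P5) with only the compared groups fitted and 797 (372 lower) with a change of at least 2-fold required. Leaving out 1 array gave 973 to 1131 called, 485 to 557 higher and 416 to 627 lower. The share of called genes that were higher was 48.3%, 40.9% with medians centred and 57.2% without P5 replicate 3. The gene list counts came to 226 called members, and from 165 to 237 under the alternatives. The median of all genes moved by less than 0.1 under each scaling. For the node comparison, fitting only its groups gave 80 lower, array weights 3259 called (1363 higher, 1896 lower) and a change of at least 2-fold 58 lower. Leaving out 1 array gave 534 to 1032 called, 473 to 764 higher and 61 to 268 lower. The causes were not tested. With the replicate number as a block 1286 and 946 genes were called. Same-numbered P5 and DC arrays correlated in their deviations at 0.043, 0.075 and 0.070, under 0.1, so the numbers were not taken as pairs, although each correlated best with its own number. In the node the values were -0.10, -0.12 and -0.20. With 3 arrays a group 40 of 100 simulated 2-fold differences were found, against 98 of 100 at 4-fold. The simulation differs from the data in its number and choice of changed genes, so these are not rates for the data.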

Other observations

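Probe sets left out of the comparison for want of 1 gene symbol also differed between P5 and dermal DC. Of 1321 probe sets with several symbols 48 passed (3.63%), 15 higher and 33 lower in P5, and of 11799 with none 150 passed (1.27%), 69 higher and 81 lower, beside 5.51% of those with 1 symbol.

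Among markers of other cell types, 3 of 9 plasmacytoid DC genes were higher in P5. Siglech, a sialic acid receptor gene, was at 8.16, 6.44 and 7.67 in P5, against 4.32, 6.31 and 4.64 in DC (difference 2.33, SE 0.47, adjusted p = 0.0013, and 0.14 with only these 2 groups fitted), with DC replicate 2 near the lowest P5 array and 2.94 as the difference without it. Cox6a2 had a difference of 1.16 (SE 0.21, adjusted p = 0.00043, and 0.052 in that fit). Bst2 had a difference of 0.79 (SE 0.21, adjusted p = 0.017), and 0.092, 0.077 and 0.058 without P5 replicate 1, DC replicate 1 and DC replicate 3. Tcf4, a factor that plasmacytoid DC require, did not pass (difference 0.62, SE 0.25, adjusted p = 0.19), nor did Spib (difference -0.19, SE 0.37, adjusted p = 0.92). Ppbp, a chemokine gene of platelets, was at 8.43, 8.42 and 6.71 in P5, against 4.79, 3.996 and 4.03 in DC (difference 3.58, SE 0.70, adjusted p = 0.001), while the platelet genes Itga2b and Gp9 did not pass (0.01 and 0.11). Cd4 was higher, at 7.21, 5.98 and 5.79 in P5, against 4.30, 4.99 and 4.69 in DC (difference 1.67, SE 0.35, adjusted p = 0.0021, and 0.095 with only these 2 groups fitted), where Cd3e had -0.47. Cadm1, of the other dermal DC lineage, was higher by 1.13 (SE 0.26, adjusted p = 0.0047, and 0.093 in that fit), while Cd207 had a difference of -0.95 (adjusted p = 0.073). Of 12 neutrophil genes 2 were higher in P5, Mmp9 and Csf3r, and 0 lower. The median difference of that list was -0.03, and S100a8, Mpo and Camp did not pass. Of 12 cartilage, 7 B cell and 11 mast cell and basophil genes 0 passed in the limma fit, beside 1300 of 19937 genes (6.52%).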
